A study of Mus musculus with 26 samples.

Results

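Krt7, Krt8, Krt18 and Krt19, the keratin genes of simple epithelia, and Vim, the gene of the mesenchymal filament protein vimentin, were followed through 26 mouse skin cell lines. Each gene was read from its single-gene probe set with the highest mean, and the 5 genes were all measured, out of 18193 genes with such a probe set. Values are log2 units after RMA, a processing method that scales all arrays to near-equal distributions, so a step of 1 unit is a doubling.

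Intermediate filaments are the flexible fibres of the cytoskeleton. Keratin filaments form only from a type II keratin paired with a type I keratin. Krt7 and Krt8 encode type II chains, and Krt18 and Krt19 encode type I chains. These 4 are typical of single-layered and glandular epithelia, whereas the keratinocytes of the epidermis use Krt5 with Krt14. Vimentin is a type III filament protein that assembles on its own and is used as a marker of mesenchymal cells and of epithelial to mesenchymal transition (EMT). In normal mouse skin, Krt8 and Krt18 are known from Merkel cells, and simple keratins also appear in skin carcinomas.

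The lines came from squamous skin carcinomas, a papilloma and immortalised keratinocytes, grew in serum and were harvested in log phase, with 1 array per line. The spindle carcinoma lines, labelled for the elongated, fibroblast-like form of spindle cells, were A5, CarB, CarC, D3, D3DP, H11 and MSN2 (n = 7). The non-spindle carcinoma lines were B9, B9ras, B9rassmad, E4, PDV and PDVC57, with no cross stated, and MSC7A, MSC11B, MSC12, MSCP1, MSCP5 and SN161, from Spretus crosses (n = 12). The immortalised keratinocyte group held C5N and, from a p53 null mouse, NK (n = 2). The papilloma line was P6. The spindle state of the carcinoma lines 2945CA and MSCb1 was not stated, and label text and flags disagreed for B9Smad and for 1 keratinocyte line, so these 4 lines and P6 entered no comparison. The cross was Spretus/NIH for SN161 and Spretus/CBA for the other cross lines, MSCb1 included; no ages or driver alleles of the tumours were used here. Some lines share a name stem (B9, D3, PDV, Car), and nothing in the labels gives more than 1 culture of a line. The p-values therefore measure the spread between lines.

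Median array values ran from 5.04 to 5.15, and values near them cannot be told from background. In what follows, high means more than 2 log2 units (4-fold) above the median of the array, a limit set with the values known. The values nearest to it were 7.23 for Krt7 in MSCP1, 7.16 and 7.12 for Vim in P6 and NK, 6.80 for Krt7 in MSCP5, 6.60 for Krt18 in CarB and 6.59 for Krt8 in B9ras. Cdh1, the gene of the epithelial adhesion protein E-cadherin, was above the array median in 15 lines, at 8.49 to 11.78, and below it in 11 lines, at 3.02 to 3.78. The lines below it were the 7 spindle lines, 2945CA, and the 3 non-spindle lines MSC12, MSC11B and MSC7A. Both keratinocyte lines had 8 of 8 epithelial marker genes high. MSC12, MSC11B and MSC7A had 0 of 8 high, and had 8, 6 and 6 of 8 mesenchymal or fibroblast marker genes high, against their label without spindle pathology. Results that rest on these 3 lines are given with and without them.

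Krt8 and Krt18 lie close together on chromosome 15 and are read in opposite directions from starts 23874 bases apart, with 2 long noncoding RNA genes annotated between them. Krt7 lies on the same chromosome, Krt19 on chromosome 11 and Vim on chromosome 2. A promoter sequence was found for 4 of the 5 genes. The 250 bases before the start are shown for Krt8 and Krt18, because only 1 of this neighbouring pair was high in several lines, and for Vim, whose pattern over lines was unlike theirs. They are from RefSeq on GRCm38.p6, 5′ to 3′ on the strand of the gene, at chr15:102004343-102004592 (minus strand) for Krt8, chr15:102027966-102028215 (plus strand) for Krt18 and chr2:13574061-13574310 (plus strand) for Vim. Capitals mark matches to CACCTG, the core of the E-box that Snail and Zeb repressors bind, and to the TATA box TATAAA.
Krt8: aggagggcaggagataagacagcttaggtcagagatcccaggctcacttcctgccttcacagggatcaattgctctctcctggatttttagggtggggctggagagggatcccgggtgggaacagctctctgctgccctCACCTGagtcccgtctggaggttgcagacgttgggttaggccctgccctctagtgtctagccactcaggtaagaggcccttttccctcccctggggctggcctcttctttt
Krt18: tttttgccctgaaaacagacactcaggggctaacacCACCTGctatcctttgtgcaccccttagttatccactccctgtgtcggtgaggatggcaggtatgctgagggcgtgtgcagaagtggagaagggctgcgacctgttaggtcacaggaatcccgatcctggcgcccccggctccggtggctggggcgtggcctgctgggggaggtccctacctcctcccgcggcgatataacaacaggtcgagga
Vim: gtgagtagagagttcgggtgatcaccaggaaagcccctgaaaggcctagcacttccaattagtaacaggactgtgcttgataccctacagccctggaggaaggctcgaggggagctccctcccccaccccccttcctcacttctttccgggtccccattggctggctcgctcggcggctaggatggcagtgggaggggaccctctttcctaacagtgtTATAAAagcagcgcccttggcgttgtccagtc
Both strands were searched. CACCTG occurred once in each of Krt8, Krt18 and Krt7, starting 111, 214 and 44 bases before the start, and not in the Vim window. It occurs in 17.2% of 32851 promoter windows of this length. TATAAA occurred in the Vim window, starting 32 bases before the start, and is found in 12.4% of windows. The GC box GGGCGG matched 4 times in the Krt7 window and in none of the other 3, against 32.7% of windows. TGANTCA, the site of AP-1 factors, matched in none of the 4, against 6.7% of windows. These matches describe letters, not binding.

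The 5 genes were among the most variable on the arrays. Krt18 spanned 9.48 log2 units over the 26 lines, Vim 9.27, Krt8 8.93, Krt7 8.58 and Krt19 7.17, against a median of 1.97 over 12641 genes. A range as wide was found in 0.158% of genes for Krt18 and in 1.99% for Krt19. Krt18 was high in 20 lines, Krt8 in 13, Krt19 in 9, Krt7 in 6 and Vim in 25. In cultured lines, fewer cells of a kind and less RNA per cell cannot be told apart.

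**Figure D1:**
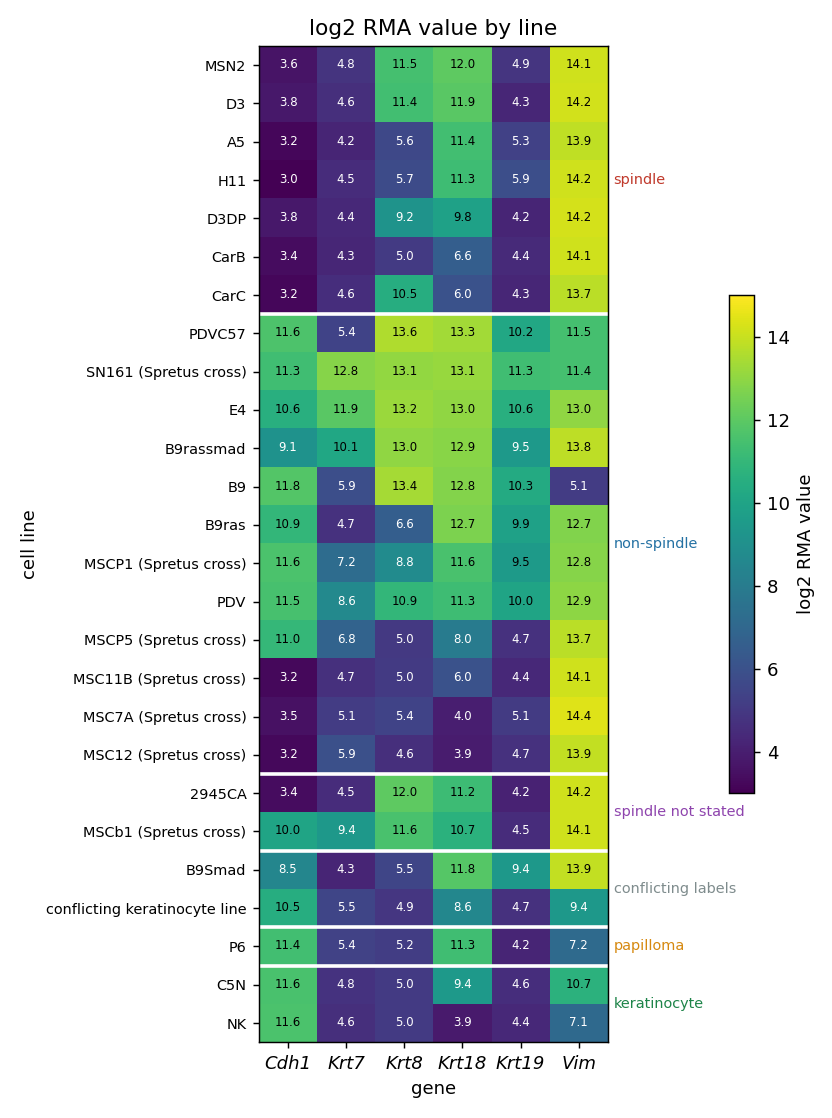
Log2 RMA values of Cdh1 and the 5 genes (columns) in each of the 26 lines (rows, by label group, ordered by Krt18 within a group). Dark cells are low: Krt7 and Krt19 are dark in all 7 spindle lines, Krt8 and Krt18 differ from line to line, and Vim is lowest in B9 at 5.14.

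Among the type II chains, Krt8 had log2 values of 11.39 in D3, 9.15 in D3DP, 5.59 in A5, 11.46 in MSN2, 5.73 in H11, 10.48 in CarC and 5.02 in CarB. Of these spindle lines 4 of 7 were high, and CarC and CarB, which share a name stem, were 5.46 log2 units apart. In non-spindle lines Krt8 was at 13.57 in PDVC57, 13.37 in B9, 13.18 in E4, 13.07 in SN161, 13.02 in B9rassmad, 10.93 in PDV, 8.81 in MSCP1, 6.59 in B9ras, 5.40 in MSC7A, 5.04 in MSC11B, 4.99 in MSCP5 and 4.64 in MSC12. The 5 highest were all above every spindle line, and the whole spindle range lay inside that of the non-spindle lines. The keratinocyte lines C5N and NK had 5.04 and 5.03, near the array median. In the papilloma line it was at 5.17. The widest gap in the order of the 26 lines, 2.23, lay between MSCP1 and B9ras and left 13 lines on each side.

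Krt7 was the most restricted of the 4 keratins. It had 4.60 in D3, 4.39 in D3DP, 4.22 in A5, 4.80 in MSN2, 4.50 in H11, 4.57 in CarC and 4.29 in CarB. All 7 spindle values were below the array median. In non-spindle lines it was at 12.80 in SN161, 11.92 in E4, 10.14 in B9rassmad, 8.63 in PDV, 7.23 in MSCP1, 6.80 in MSCP5, 5.93 in MSC12, 5.89 in B9, 5.41 in PDVC57, 5.11 in MSC7A, 4.69 in B9ras and 4.67 in MSC11B. The keratinocyte lines had 4.77 in C5N and 4.61 in NK. MSCb1 had 9.41, and each of the 6 lines in which Krt7 was high also had high Krt8 and Krt18. PDVC57 and B9, with the highest Krt8 values of all, were not among them.

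Among the type I chains, Krt18 had 11.94 in D3, 9.85 in D3DP, 11.37 in A5, 12.01 in MSN2, 11.27 in H11, 6.0 in CarC and 6.60 in CarB. CarC and CarB stood apart from the other spindle lines. In non-spindle lines Krt18 was at 13.35 in PDVC57, 13.14 in SN161, 13.01 in E4, 12.87 in B9rassmad, 12.78 in B9, 12.65 in B9ras, 11.57 in MSCP1, 11.28 in PDV, 7.98 in MSCP5, 6.03 in MSC11B, 4.0 in MSC7A and 3.90 in MSC12. The spindle values lay inside this range. The keratinocyte lines differed widely, with 9.45 in C5N and 3.88 in NK, and the papilloma line had 11.32. The keratinocyte line of conflicting labels had 8.57.

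Krt19 was split into a high and a low set of lines. It had 4.28 in D3, 4.24 in D3DP, 5.32 in A5, 4.86 in MSN2, 5.86 in H11, 4.28 in CarC and 4.43 in CarB. In 8 non-spindle lines it ran from 9.49 in B9rassmad to 11.34 in SN161, with E4 at 10.59, B9 at 10.32, PDVC57 at 10.21, B9ras at 9.86 and MSCP1 at 9.53. In the other 4 it was at 5.07 in MSC7A, 4.69 in MSC12, 4.69 in MSCP5 and 4.38 in MSC11B. No spindle line was high, 8 of 12 non-spindle lines were, and the rest overlapped with the spindle lines. C5N and NK had 4.59 and 4.37, and P6 had 4.22. The widest gap in the order of all lines, 3.56, lay between B9Smad at 9.42 and H11 at 5.86.

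Vim had 14.20 in D3, 14.21 in D3DP, 13.86 in A5, 14.12 in MSN2, 14.15 in H11, 13.74 in CarC and 14.13 in CarB. In non-spindle lines it was at 14.41 in MSC7A, 14.12 in MSC11B, 13.90 in MSC12, 13.80 in B9rassmad, 13.74 in MSCP5, 13.01 in E4, 12.94 in PDV, 12.81 in MSCP1, 12.71 in B9ras, 11.46 in PDVC57, 11.45 in SN161 and 5.14 in B9. The spindle lines were narrow, and 11 of the 12 non-spindle lines were high too. Vim was at 10.69 in C5N and 7.12 in NK, and at 7.16 in P6. B9 was the only line of the 26 in which Vim was not high.

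**Figure D2:**
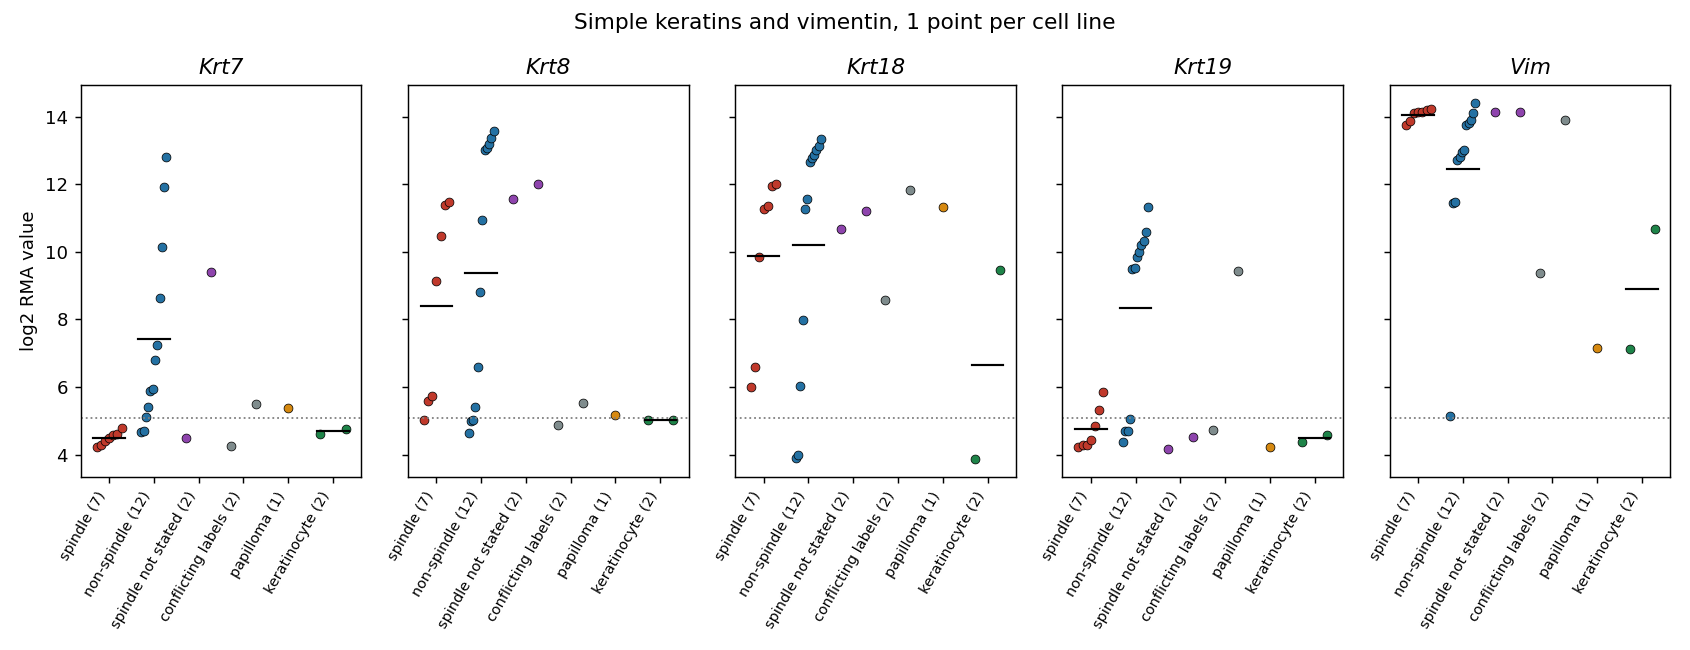
Log2 RMA values of each gene, 1 point per line, by label group; black bars are means of the 3 compared groups and the dotted line is the mean array median. Krt7 and Krt19 are near background in spindle lines and range to 12.80 and 11.34 in non-spindle lines, while the spindle Vim values sit between 13.74 and 14.21.

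The comparison of spindle with non-spindle carcinoma lines asked which filament genes differ with spindle pathology. Krt19 averaged 4.75 ± 0.63 in spindle lines (SD, n = 7) and 8.35 ± 2.74 in non-spindle lines (SD, n = 12), which differed by -3.60 (SE 0.98, limma adjusted p = 0.0868). Krt7 averaged 4.48 ± 0.20 in spindle and 7.43 ± 2.82 in non-spindle lines, which differed by -2.95 (SE 1.00, limma adjusted p = 0.129). Neither passed the threshold of 0.05 over 12497 genes. Vim averaged 14.06 ± 0.18 in spindle and 12.46 ± 2.49 in non-spindle lines, 1.60 higher (SE 0.92, limma adjusted p = 0.325). Krt8 averaged 8.40 ± 2.88 in spindle and 9.38 ± 3.83 in non-spindle lines, and its difference of -0.98 had a 95% interval from -4.21 to 2.24. Krt18 averaged 9.86 ± 2.54 in spindle and 10.21 ± 3.69 in non-spindle lines, and its difference of -0.35 had an interval from -3.52 to 2.81. With lines of a name family averaged, the Krt18 difference had the other sign, 0.95, as it did without CarC (0.29) or CarB. The Vim difference was 0.94 without B9, and the Krt8 difference ran from -1.49 without MSN2 to -0.42 without CarB.

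By limma, 0 of the 5 genes were called, against 0.064% of all genes tested, and 2 had an unadjusted p under 0.05, as did 20.8% of all genes. The two-sided exact permutation test over the 50388 divisions of the 19 lines, without adjustment over the 10 such tests made, gave p = 0.000198 for Krt7, 0.00699 for Krt19 and 0.00917 for Vim. The values were 0.559 for Krt8 and 0.806 for Krt18. The SD of Krt7 was 0.20 in spindle and 2.82 in non-spindle lines, while limma fits a common SD per gene. The exact test takes the lines as exchangeable, although some share a name stem and the SDs of Krt7, Krt19 and Vim differed between the groups. Its p-values can therefore reflect a difference in spread as well as in means. With lines of a name stem averaged, limma gave an adjusted p of 0.448 for Krt7 and 0.462 for Krt19. Without MSC12, MSC11B and MSC7A, limma gave a Krt19 difference of -4.81 (adjusted p = 0.000293) and a Krt7 difference of -3.69 (adjusted p = 0.0216). The differences of the others also grew, to -2.44 for Krt8, -2.21 for Krt18 and 2.16 for Vim (limma adjusted p = 0.247, 0.164 and 0.134). The 3 lines were singled out with their values known, so this is no independent test. In that fit 1977 genes were called, against 8 with the 3 lines included. Leaving out MSC12, MSC11B or MSC7A alone also put Krt19 past the threshold, with a lowest limma adjusted p of 0.0275. Those fits called 180, 475 and 183 genes.

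**Figure D3:**
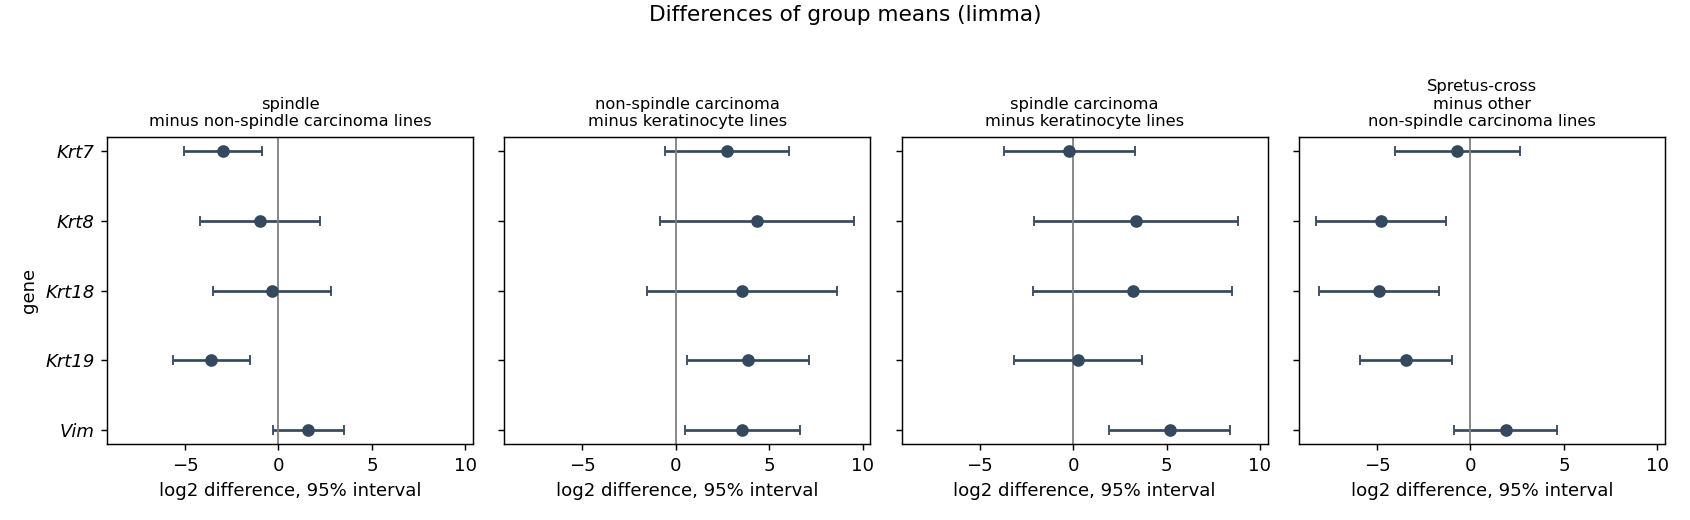
Difference of group means on the log2 scale (points) with 95% intervals from limma (bars) for each gene and comparison. The intervals of Krt7 and Krt19 lie below 0 for spindle minus non-spindle lines before adjustment over genes, and those of Krt8 and Krt18 span several units on both sides of 0.

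MSC12, MSC11B and MSC7A, the non-spindle lines with low Cdh1, had none of the 4 keratins high. Among the 8 other lines with low Cdh1, all but CarB had Krt8 or Krt18 high, and D3, D3DP, MSN2 and 2945CA had both. Krt19 ran from 4.17 to 5.86 in the 11 lines with low Cdh1, and from 4.22 to 11.34 in the 15 lines with Cdh1. Krt7 ran from 4.22 to 5.93 in lines with low Cdh1, and from 4.26 to 12.80 in lines with Cdh1. All 9 lines with high Krt19 and all 6 with high Krt7 had Cdh1 above the array median. The lines with Cdh1 but low Krt19 were MSCP5, MSCb1, the papilloma line and the 3 keratinocyte lines, that of conflicting labels included. Vim lay between 13.74 and 14.41 in the lines with low Cdh1, and between 5.14 and 14.14 in those with Cdh1. Vim above 13, a limit set with the values known, was found in 11 of 11 lines with low Cdh1 and in 5 of 15 with Cdh1. E4, at 13.01, and PDV, at 12.94, lay next to this limit. By the definition of high used above, the counts were 11 of 11 and 14 of 15. Cdh1 status was measured on the same arrays, so these ranges are a description without a test.

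**Figure D4:**
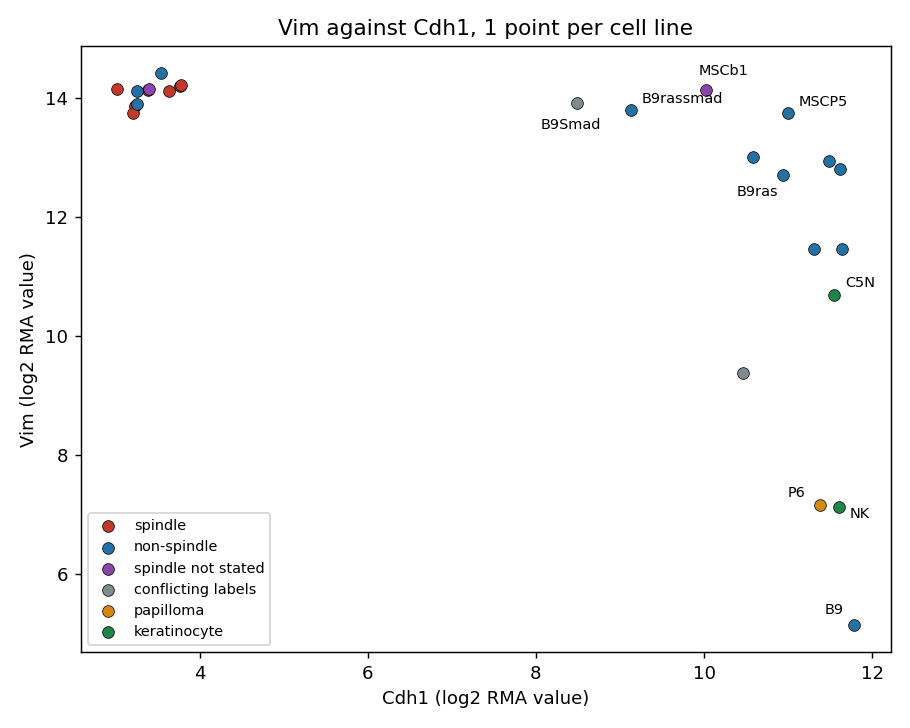
Vim against Cdh1, both as log2 RMA values, with 1 point per line coloured by label group. Lines with low Cdh1 form a tight group at Vim of 13.74 to 14.41, and lines with Cdh1 spread from 5.14 in B9 to 14.14 in MSCb1.

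Krt8 and Krt18, whose proteins pair in filaments, were both high in 12 lines and both not high in 5. In 8 lines Krt18 was high without Krt8: the spindle lines A5 and H11, the non-spindle lines B9ras and MSCP5, P6, C5N, B9Smad and the keratinocyte line of conflicting labels. CarC was the only line with high Krt8 and without high Krt18. Where Krt8 was low, Krt18 still ran from 3.88 in NK to 12.65 in B9ras. Krt8 and Krt18 had a Spearman correlation of 0.86 (Pearson 0.67) over the 15 lines with Cdh1, and of 0.65 (Pearson 0.57) over the 11 with low Cdh1. Krt18 and Krt19 had 0.79 (Pearson 0.77) over the lines with Cdh1 and 0.05 (Pearson 0.16) over the others, where Krt19 was at background. These describe lines that share arrays scaled together, and in part a name stem.

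**Figure D5:**
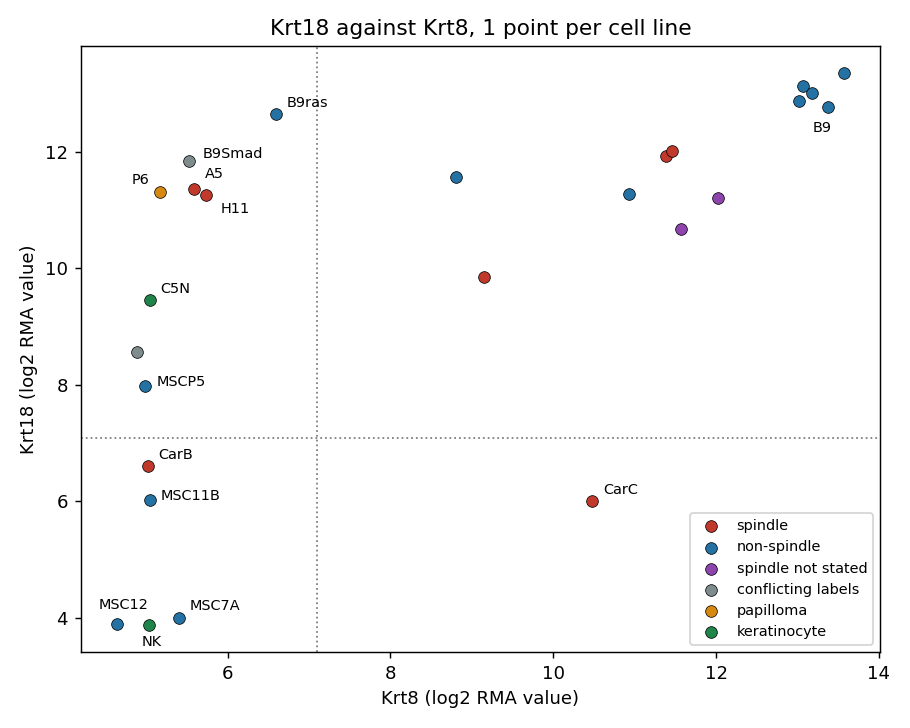
Krt18 against Krt8, both as log2 RMA values, with 1 point per line coloured by label group; dotted lines mark 2 log2 units above the mean array median. The upper left field holds 8 lines with Krt18 and without high Krt8, and the lower right field holds CarC alone.

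Krt8 and Vim have 3 probe sets each that the annotation gives to these genes alone. By their names, both other Krt8 sets and 1 of the other Vim sets hold probes that may match further transcripts. The 2 other Krt8 probe sets correlated at 0.997 with the set used over the 26 lines. The 2 other Vim probe sets correlated at 0.997 and 0.998. Krt7, Krt18 and Krt19 had 1 such probe set each.

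Lines that share a name stem with B9 differed from it in some of the 5 genes, and in other genes too. Krt14 was at 14.09 in B9, 14.15 in B9ras, 13.75 in B9Smad and 8.11 in B9rassmad. B9ras had Krt8 at 6.59, against 13.37 in B9, and Vim at 12.71, against 5.14 in B9. B9Smad had Krt8 at 5.52 and Vim at 13.91. B9rassmad had Krt8 at 13.02, close to B9, with Vim at 13.80 and Krt7 at 10.14, against Krt7 of 5.89 in B9. Krt18 was between 11.84 and 12.87 and Krt19 between 9.42 and 10.32 in all 4 of these lines. Vim was 7.57 to 8.78 log2 units higher in these 3 lines than in B9, while Cdh1 was at 10.94 in B9ras, 9.13 in B9rassmad and 8.49 in B9Smad, against 11.78 in B9. With 1 array per line these differences have no replicate check. The arrays of B9ras and PDV were among the 3 closest pairs of arrays (Pearson 0.9904), and B9 was in none of those pairs.

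The pairs of other name stems were compared in the same way. PDVC57 had Krt8 at 13.57 and Krt18 at 13.35, against 10.93 and 11.28 in PDV, and Krt7 at 5.41, against 8.63 in PDV. D3DP had Krt8 at 9.15 and Krt18 at 9.85, against 11.39 and 11.94 in D3. In each of these pairs Krt8 and Krt18 differed in the same direction, by 2.07 to 2.64 log2 units. CarC minus CarB was 5.46 for Krt8 and between -0.60 (Krt18) and 0.28 (Krt7) for the other 4 genes.

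The next comparison set non-spindle carcinoma lines against keratinocyte lines. All 5 genes had a higher mean in the carcinoma lines, and none was called by limma, against 1.99% of all genes tested. Krt8 averaged 9.38 ± 3.83 in non-spindle lines (SD, n = 12) and 5.04 ± 0.01 in keratinocyte lines (SD, n = 2), 4.35 higher (SE 2.48, limma adjusted p = 0.541). Krt19 averaged 8.35 ± 2.74 in non-spindle and 4.48 ± 0.16 in keratinocyte lines, 3.87 higher (SE 1.57, limma adjusted p = 0.293). Vim averaged 12.46 ± 2.49 in non-spindle and 8.90 ± 2.53 in keratinocyte lines, 3.55 higher (SE 1.48, limma adjusted p = 0.314). Krt18 averaged 10.21 ± 3.69 in non-spindle and 6.66 ± 3.95 in keratinocyte lines, and the difference of 3.55 was 0.76 without NK and 6.34 without C5N. Krt7 averaged 7.43 ± 2.82 in non-spindle and 4.69 ± 0.11 in keratinocyte lines, 2.75 higher (SE 1.60, limma adjusted p = 0.556). Unadjusted limma p-values under 0.05 were found for 2 of the 5, Krt19 and Vim, and for 12% of all genes. The Vim difference was called by limma when B9, with Vim near the array median, was left out (adjusted p = 0.00285). B9 had the lowest Vim value of all lines, so this is no independent test. That fit called 287 genes, against 249 with B9. The Vim difference was 1.77 without NK and 5.34 without C5N. Without MSC12, MSC11B and MSC7A the differences were 5.80 for Krt8, 5.41 for Krt18, 5.08 for Krt19, 3.48 for Krt7 and 2.99 for Vim. Of these, limma called Krt19 alone (adjusted p = 0.0194), in a fit that called 237 genes. The 3 lines were singled out with their values known.

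Spindle carcinoma lines were set against the same 2 keratinocyte lines, so this comparison shares its controls with the preceding one. Vim averaged 14.06 ± 0.18 in spindle lines (SD, n = 7) and 8.90 ± 2.53 in keratinocyte lines (SD, n = 2), 5.16 higher (SE 1.55, limma adjusted p = 0.0569). All 7 spindle lines were above both keratinocyte lines. The difference was 3.37 without NK and 6.94 without C5N, and it passed the threshold with lines of conflicting labels placed by their cell type label (4.98, limma adjusted p = 0.0221). Krt8 and Krt18 had differences of 3.36 (SE 2.61) and 3.20 (SE 2.56), with limma adjusted p of 0.497 and 0.514. The Krt18 difference was 0.41 without NK and 5.99 without C5N. Krt7 and Krt19 were near background in both groups, with differences of -0.21 (95% interval -3.71 to 3.30) and 0.27 (-3.17 to 3.71). By limma 0 of the 5 were called, against 5.39% of all genes, and 1 had an unadjusted p under 0.05, against 20.8% of all genes.

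Spretus crosses were compared within the non-spindle lines, 6 lines from crosses against 6 with no cross stated. Krt18 averaged 7.77 ± 3.89 in cross lines and 12.66 ± 0.72 in the others (SD, n = 6 each), a difference of -4.88 (SE 1.47, limma adjusted p = 0.406). Krt8 averaged 6.99 ± 3.35 in cross lines and 11.78 ± 2.72 in the others, a difference of -4.78 (SE 1.61, limma adjusted p = 0.406). Krt19 averaged 6.62 ± 3.02 in cross lines and 10.08 ± 0.39 in the others, a difference of -3.46 (SE 1.14, limma adjusted p = 0.406). In each of these 3 genes, 4 of the 6 cross lines, MSCP5, MSC12, MSC11B and MSC7A, lay below every line with no cross stated, and SN161 and MSCP1 did not. Krt7 averaged 7.09 ± 2.96 in cross lines and 7.78 ± 2.91 in the others, and Vim averaged 13.41 ± 1.10 in cross lines and 11.51 ± 3.21 in the others. By limma 0 of the 5 genes were called, as were 0% of all 12081 genes tested, and 3 had an unadjusted p under 0.05, against 11.2% of all genes. The two-sided exact permutation test over 924 divisions gave p = 0.026 for Krt18, 0.0303 for Krt8 and 0.0476 for Krt19, unadjusted. It gave 0.169 for Vim and 0.69 for Krt7. The SDs of Krt18 and Krt19 differed between the 2 sets of lines, so these p-values too can reflect spread as well as means. The Vim difference of 1.90 was 0.62 without B9, and the Krt7 difference of -0.69 ran from -1.83 without SN161 to 0.14 without E4.

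All 3 non-spindle lines with low Cdh1 came from Spretus/CBA crosses, so low Cdh1 moved with the cross. Without them the differences were -1.76 for Krt18, -2.82 for Krt8 and -1.56 for Krt19, each with a limma adjusted p of 0.998, and 1.16 for Krt7. Among the 3 cross lines that were left, SN161 and MSCP1 had all 4 keratins high and MSCP5 had Krt18 alone. MSCP5 had 8 of 8 epithelial markers high and also 6 of 8 mesenchymal or fibroblast markers, among them Col1a1 at 12.65 and Col3a1 at 12.25, collagen genes of fibroblasts, whose part in its keratin values was not tested. The array of MSCP1, a cross line, correlated at 0.9911 with that of PDV, which has no cross stated. MSCb1, a cross line of unstated spindle state, had Krt8 at 11.57, Krt18 at 10.68 and Krt7 at 9.41 with Krt19 at 4.51. Spretus sequence under the probes was not tested.

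Around the 5 genes, a list of 44 other genes of intermediate filaments and their linkers was read, of which 33 passed the filter on dim values in the 3-group fit. In spindle against non-spindle lines, 0 of these 33 were called by limma, and 15 had an unadjusted p under 0.05, all lower in spindle lines, as did 20.8% of all genes in either direction. The median difference of the list was -0.45, against 0.04 over all genes tested. Of 10 stratified and hair follicle keratins tested, 6 had an unadjusted p under 0.05, to be read against the same 20.8%. Krt14, the basal keratinocyte partner of Krt5, averaged 4.37 ± 0.22 in spindle and 10.18 ± 4.19 in non-spindle lines, which differed by -5.80 (SE 1.48, limma adjusted p = 0.0825). Krt80, the only gene of the simple-type and atypical keratins besides the members that passed the filter, differed by -1.02 (SE 0.45, limma adjusted p = 0.211).

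The 15 genes listed as linkers tie filaments to junctions and other structures or, like Sfn, bind filament proteins. Of them 8 had an unadjusted limma p under 0.05 in this comparison, and of 3 lamin genes none did, against 20.8% of all genes. Pkp1, a desmosomal plakophilin, differed by -2.99 (SE 0.78, limma adjusted p = 0.085) between spindle and non-spindle lines. Pkp2, another plakophilin, differed by 0.85 (SE 0.61, limma adjusted p = 0.433). Sfn, the keratin-binding 14-3-3 sigma protein, differed by -2.92 (SE 0.84, limma adjusted p = 0.097), and Dsp, the desmoplakin gene, by -3.32 (SE 1.40, limma adjusted p = 0.191). Plec, the plectin gene, which links filaments of several types, differed by -0.59 (SE 0.21, limma adjusted p = 0.14). The lamin genes Lmna, Lmnb1 and Lmnb2 differed by 0.21, 0.07 and -0.03. Nes, the gene of the filament protein nestin, was at 7.48 to 7.94 in spindle lines and at 7.10 to 10.23 in non-spindle lines, with the highest value in MSC7A.

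Against keratinocyte lines, 8 of the 33 genes were called in spindle lines, each lower, where 2.96% of all genes were called lower. Krt14 fell by 9.68 on the log2 scale (SE 2.49, limma adjusted p = 0.028), Krt17, a keratin of hair follicles and activated keratinocytes, by 9.29 (SE 2.49, adjusted p = 0.0347), and Krt6a, its wound-induced type II counterpart, by 7.64 (SE 2.20, adjusted p = 0.0467). Of the genes listed as linkers, those called lower included Pkp1, by 5.15 (SE 1.32, limma adjusted p = 0.0274), Sfn, by 4.99 (SE 1.41, adjusted p = 0.0437), and Jup, the plakoglobin gene, by 3.90 (SE 0.96, adjusted p = 0.0228). The plakin genes Ppl and Evpl fell by 3.81 (SE 0.99, limma adjusted p = 0.0303) and by 2.91 (SE 0.79, adjusted p = 0.0363). Unadjusted limma p-values under 0.05 were found for 2 of the 33 genes higher and 18 lower, against 20.8% of all genes. Dst, also a plakin gene, was 1.21 higher in spindle lines (SE 0.39, limma adjusted p = 0.0777). Pkp2, a plakophilin gene like Pkp1, was 2.64 higher (SE 1.03, limma adjusted p = 0.142). No gene of the list was called in non-spindle lines against keratinocyte lines or in cross lines against the others. Unadjusted limma p-values under 0.05 were found there for 1 gene higher and 5 lower of 33, against 12% of all genes, and for 1 higher and 2 lower of 32, against 11.2% of all genes. Leaving out 1 line moved the count of 8 to between 0, without NK, and 7. It moved by more than 1.5 times without D3DP, C5N, MSN2, NK, H11, CarC or CarB.

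Markers of Merkel cells were read because those cells hold Krt8, Krt18 and Krt20 in skin. Of the 6 listed, Atoh1, Chga and Piezo2 were high in 0 of the 26 lines. Isl1, a transcription factor gene of Merkel cells and neurons, was high in 5 lines, at 7.93 in MSN2, 7.63 in PDV, 7.56 in MSCP1, 7.50 in B9ras and 7.45 in B9rassmad. Krt20 was at 8.31 in 2945CA, against 3.55 to 4.71 in the other 25 lines. In that line Krt8 was at 12.02, Krt18 at 11.21, Vim at 14.15 and Cdh1 at 3.40. Of the listed filament genes, Nefl and Nefm, which encode neurofilament chains, were also high in 2945CA, at 9.45 and 7.47. Elsewhere Nefl was at 4.36 or lower, while Nefm was at 7.56 in MSC7A and at 3.66 or lower in the rest. Sox2, which Merkel cells and other cells use, was at 10.08 in 2945CA and ran from 2.84 in D3DP to 10.47 in NK. High Sox2 was not particular to 2945CA: it was also at 10.2 in E4, 9.98 in B9Smad, 9.95 in B9ras and 9.58 in A5. The melanocyte and endothelial markers, and the 2 of 4 sebaceous markers that were measured, were high in 0 of 26 lines. Of 5 leukocyte markers, Ptprc, Cd3e, Cd79a and Csf1r were high in 0 lines, and Cd68, a lysosomal protein gene used as a macrophage marker, was high in SN161, its highest line, in the keratinocyte line of conflicting labels (7.77) and in 2945CA (7.59). The part of these markers in the keratin values of those lines was not tested.

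The genes whose values ran closest to each member over the 26 lines were taken among 12640 genes. For Vim, 4 of the 5 were Zeb2, an EMT transcription factor gene (Pearson 0.871), Aqp1, a water channel gene (0.867), Cep170, a centrosomal protein gene (0.866), and Cavin2, a caveola gene (0.865). For Krt19 they were Mal (0.887), a gene of apical membrane sorting, Myzap (0.861), Fnbp4 (0.86), Ttc9 (0.857) and Phlda2 (0.847). For Krt18 they were Gm14137 (0.827), Uhrf1bp1l (0.8), Strbp (0.797), Chrnb1 (0.792) and Ezr (0.777), the ezrin gene, which links membrane to actin. For Krt8 they were Pttg1ip (0.759), Msln (0.746), the mesothelin gene, Slco2a1 (0.729), Cystm1 (0.726) and Sigirr (0.712). For Krt7 they were Arg2 (0.752), Cldn3 (0.743), a tight junction gene, Rab17 (0.738), Padi1 (0.731) and Chil1 (0.705). No other member was among them: by its correlation with Krt8, Krt18 ranked 24, and by that with Krt18, Krt8 ranked 85. Over all 26 lines, Vim had Spearman correlations of -0.41 with Krt7, -0.36 with Krt19, -0.24 with Krt18 and -0.01 with Krt8, and Pearson correlations between -0.16 and 0.01 with the same genes.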

How the data were processed

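Biotin-labelled RNA of 26 lines was hybridised to Affymetrix arrays. The deposited table holds log2 values of 45037 probe sets (2.28 to 14.92), which the authors computed by RMA (per the submitters' processing notes). The version of RMA is not given in the sources used here. Quantile normalisation hides changes in total RNA, and log2 differences near background are compressed. Array annotation gave 34945 probe sets 1 gene symbol, 932 several and 9160 none. RefSeq of GRCm38.p6 matched 34741 of the 34945.

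Lines were grouped where label and flags matched. Genes above the array median on 2 or more arrays of a fit were tested with limma 3.58.1 (R 4.3.3, lmFit, eBayes), in 1 model of the 3 main groups (21 lines) or in the 12 non-spindle lines, with Benjamini-Hochberg adjustment over all genes. The means and all other calculations used Python 3.11.15. The number of arrays limits the precision. The fit was checked on simulated data. The closest arrays were A5 and H11 (Pearson 0.9928), PDV and MSCP1 (0.9911) and PDV and B9ras (0.9904). They shared 15, 17 and 21 identical values of 45037, so none of these was a copy of another, and all arrays were counted as separate. Few identical values cannot show that the lines are independent. A5 and H11 share no name stem, so averaging by name stem left them as 2 lines. It likewise left PDV apart from MSCP1 and from B9ras.

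Members and lists were chosen with earlier results of these data known. Named genes are the members, the listed filament genes and the 5 genes most correlated with each member. For Vim, 1 of these is not reported here. The alternatives were other probe sets, filters, scaling, moderation, name families, conflicting labels, 3 lines left out and single lines left out.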

Additional observations from a re-analysis of the deposited data

Results flagged for a closer look

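Among 15 sets of 6 or 7 lines, 3 held a line far from the others of its group, where chance flags about 5% of sets. Krt7 in SN161, at 12.80, stood far above the other Spretus-cross lines, of which the next was at 7.23. Krt18 in PDV, at 11.28, was lowest among the lines with no cross stated, next to 12.65. Vim in B9, at 5.14, lay far below the other lines with no cross stated, next to 11.46.

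Lines outside every comparison held signal above both keratinocyte lines. P6 had Krt18 at 11.32. The line 2945CA had Krt8 at 12.02, Krt18 at 11.21, Vim at 14.15 and Krt20 at 8.31. MSCb1 had Krt7 at 9.41, Krt8 at 11.57, Krt18 at 10.68 and Vim at 14.14. B9Smad had Krt18 at 11.84, Krt19 at 9.42 and Vim at 13.91.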

How the results depend on the processing

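No paired analysis was possible because the replicate numbers only follow the order of deposition and pair no lines, so no fit with a replicate block was made. Over the alternatives that leave out no single line, 199 differences of the members kept direction and call, 7 passed the threshold that had not, and 3 changed sign. The causes were not tested. In spindle against non-spindle lines, limma called 8 genes. The count was 5 with the mean of all probe sets, 3 with no filter on dim genes, 48 with a stricter one, 2 with a random block for the name family, 0 with name families averaged, 0 with the conflicting lines assigned by their cell type text and 98 with them assigned by flags. The Krt18 difference was 0.14 with the family block and 0.95 with families averaged. Without MSC12, MSC11B and MSC7A, 1977 genes, 2 members (Krt7 at -3.69 and Krt19 at -4.81) and 15 listed filament genes were called. In non-spindle against keratinocyte lines, 249 genes were called, 149 with the lowest-mean probe set and 160 by cell type label. There 1 member was called with families averaged, Vim at 4.01, and 1 without the 3 lines, Krt19 at 5.08. In spindle against keratinocyte lines, 1 member, Vim, was called at 5.15 with families averaged, 4.98 by cell type label and 5.16 by flags. The 8 listed filament genes called there became 3 with families averaged, 15 by cell type label and 15 without the 3 lines. In the Spretus comparison, Krt7 was at 1.16 without the 3 lines. The stricter filter removed Krt7 and Krt19 from the 3-group fit, and placing lines by cell type label could not alter the Spretus comparison.

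Leaving out 1 line at a time gave these ranges. In spindle against non-spindle lines, Krt18 ran from -0.93 to 0.29, with the positive sign without CarC or CarB. Krt19 ran from -3.96 to -3.32 and was called without MSC12, MSC11B or MSC7A, so 0 to 1 members were called. Between 2 and 475 genes were called, the most without MSC11B, and the count moved by over 1.5 times for 16 of the 19 lines, all but MSCP5, B9 and CarC. Between 0 and 7 listed filament genes were called, those above 0 without MSC12, MSC11B or MSC7A. In non-spindle against keratinocyte lines, Vim ran from 1.77 to 5.34 and was called without B9 alone, so 0 to 1 members were called. There 134 genes (without C5N) to 334 and 0 to 1 listed genes were called, the 1 without C5N. In spindle against keratinocyte lines, where 673 genes were called, 241 (without C5N) to 579 were called, the count moving by over 1.5 times without C5N or NK, and 0 to 7 listed genes. In the Spretus comparison, Krt7 ran from -1.83 to 0.14, positive without E4, and 0 to 170 genes were called, the 170 without MSCP1. Where C5N or NK was left out, the remaining keratinocyte line was assumed to vary like the other groups.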
